A study of Mus musculus with 24 samples.

Results

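The cell cycle and mitosis genes described here are 40 genes that dividing cells transcribe, taken as a named list of symbols. The list was chosen with earlier results of these data known. Of the 40 genes, 39 had a probe set among the 18193 genes on the array, and only Ccnb1, the cyclin that starts mitosis, had none. The list holds 10 DNA replication genes and 30 mitosis genes. A gene was tested in a tissue where its log2 value exceeded 4 in at least 3 of the 12 arrays of that tissue. This left 24 of the 39 genes in lung and 12 in heart, 10 of them in both.

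Replication genes are switched on as a cell passes from G1 into S phase, when E2F factors are freed from the retinoblastoma protein. The MCM proteins Mcm2 to Mcm7 form the helicase ring that opens DNA at origins, Pcna is the sliding clamp of the polymerases, and Rrm2 is the regulated subunit of the enzyme that makes deoxynucleotides. Mitosis genes follow in G2 and M phase, when the B-type cyclins, the spindle motors, the kinetochore proteins and the machinery of cytokinesis are made, and most adult cardiomyocytes have left the cycle and express few of them.

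Lung RNA and left ventricular RNA of CD-1 mice aged 20 weeks and labelled male were hybridised to Affymetrix expression arrays, 24 arrays in 8 groups of 3. Mice were wild type or dnCREB, a line with a dominant negative CREB1 transcription factor expressed behind the alpha-myosin heavy chain promoter, which is active in cardiomyocytes, and that serves as a model of cardiac failure. Each genotype received phosphate-buffered saline (PBS) or particulate matter (PM) at 20 mg/kg with a particle size of 1.9 µm, and tissue was taken at 36 h. In each tissue the groups were therefore wild type with PBS, wild type with PM, dnCREB with PBS and dnCREB with PM. The series text speaks of n=3 animals per group, and whether lung and heart samples with equal numbers share an animal is not given in the sources used here. These are whole tissues, so fewer cells of a type and less RNA per cell cannot be told apart.

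The transgene read as labelled in heart, where the Creb1 probe set lay at 2.51 to 3.29 in wild type and at 9.05 to 12.0 in dnCREB, and at 3.34 to 4.29 in all lungs. The 8 cardiomyocyte markers averaged 15.55 to 15.92 in heart, and the 8 markers of lung epithelium averaged 12.84 to 13.30 in lung and 2.45 to 2.94 in heart. Sex markers went against the label: Xist, which is transcribed in female cells, was high in 6 of 6 wild-type hearts and 1 of 6 dnCREB hearts, and in 1 of 6 PBS lungs and 5 of 6 PM lungs. The dnCREB PBS lungs 1 and 3 were low for Xist and for the Y-linked gene Eif2s3y alike. In heart the sex marker class therefore nearly coincides with genotype, and in lung it runs largely with PM. Only the dnCREB PM group of the heart held both classes. Any heart fit with this class as a covariate thus takes its class term from 1 array, dnCREB PM array 3. Wild-type PBS lungs 1 to 3 read 2.15 to 2.72 for Xist and 9.24 to 10.19 for Eif2s3y. Wild-type PBS hearts 1 to 3 read 12.05 to 13.05 and 3.23 to 3.34. If the labels hold, these equally numbered lungs and hearts do not share an animal. Skeletal muscle genes were high in 2 of 6 PBS lungs and 3 of 6 PM lungs. One lung array stands apart most for the genes described here, wild-type PBS array 1. It was the highest of the 12 lungs for 15 of the 24 tested members. Wild-type PM array 2 was the highest for 7 of the 24, and wild-type PBS array 2 was the lowest for 13. Lung results that rest on wild-type PBS array 1 are given with and without it.

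Many promoters of these genes carry elements through which cell cycle genes are known to be controlled. The promoters of 4 genes are shown because the results turn on these genes. The sequences are RefSeq windows on GRCm38.p6 from 250 bases before the transcription start to 30 after it, all from the minus strand. Capitals mark every match, on either strand, of the CHR element of G2 and M phase genes (TTTGAA or TTCGAA), the CCAAT box, and an E2F site (TTTCCCGC or TTCCCGCC), and the pair of E2F matches in Mcm3 overlap. Cenpf, a kinetochore and centromere protein, spans chr1:189688057-189688336. Top2a, the topoisomerase that untangles sister chromosomes, spans chr11:99024160-99024439. Mcm3 and Mcm6, subunits of the replicative helicase, span chr1:20820283-20820562 and chr1:128359676-128359955.
Cenpf: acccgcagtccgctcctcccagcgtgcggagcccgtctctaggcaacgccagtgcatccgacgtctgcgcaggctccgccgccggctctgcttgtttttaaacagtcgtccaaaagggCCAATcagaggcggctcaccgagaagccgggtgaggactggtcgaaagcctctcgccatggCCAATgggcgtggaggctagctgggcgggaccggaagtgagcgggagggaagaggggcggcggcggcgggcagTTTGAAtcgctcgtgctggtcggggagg
Top2a: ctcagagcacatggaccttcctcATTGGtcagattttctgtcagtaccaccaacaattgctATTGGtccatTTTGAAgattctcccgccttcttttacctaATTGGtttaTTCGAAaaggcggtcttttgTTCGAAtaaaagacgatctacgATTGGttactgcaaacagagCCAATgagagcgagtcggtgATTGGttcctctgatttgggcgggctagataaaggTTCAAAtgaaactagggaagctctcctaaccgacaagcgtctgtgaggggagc
Mcm3: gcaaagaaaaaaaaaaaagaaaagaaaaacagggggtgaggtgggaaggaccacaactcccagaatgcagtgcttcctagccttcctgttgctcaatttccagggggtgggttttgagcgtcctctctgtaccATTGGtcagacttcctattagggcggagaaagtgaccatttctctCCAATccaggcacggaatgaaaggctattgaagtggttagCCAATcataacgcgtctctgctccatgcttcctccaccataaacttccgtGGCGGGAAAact
Mcm6: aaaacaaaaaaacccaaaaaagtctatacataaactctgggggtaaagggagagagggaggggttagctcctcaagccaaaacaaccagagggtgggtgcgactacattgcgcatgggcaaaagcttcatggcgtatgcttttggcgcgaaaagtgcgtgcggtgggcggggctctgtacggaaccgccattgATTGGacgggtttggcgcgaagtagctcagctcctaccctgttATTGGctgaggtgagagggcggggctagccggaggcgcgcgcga

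The Cenpf window holds 1 CHR match, which begins at base 3 after the start, and CCAAT boxes that begin 132 and 71 bases before it. The Top2a window holds 4 CHR matches and 6 CCAAT boxes, and the last of the CHR matches begins 23 bases before the start. Mcm3 and Mcm6 hold no CHR match in these windows, and Mcm3 is the one of the 4 with a match of the E2F spellings given above. Other spellings of an E2F site were not searched, so a window without a match may still hold one. RefSeq windows were found for 35 of the 40 members (37 windows of 250 bases before to 50 after the start), and not for Ccna2, Aurkb, Kif20a, Tpx2 and Mcm4. A CHR match was in 21 of 27 windows of mitosis genes (77.8%) and in 2 of 10 windows of replication genes (20.0%), against 19.2% of all 32851 windows. CHR and CCAAT stood together in 56.8% of the members' windows against 7.52% of all windows. The share was 70.4% for mitosis genes and 20.0% for replication genes. An E2F match was in 2 of 10 windows of replication genes and 0 of 27 of mitosis genes, against 2.73% of all windows. The cyclic AMP response element TGACGTCA, the full site that CREB proteins bind, was in 3 of the 37 windows (8.11%, those of Cenpe, Mcm5 and Ndc80) against 1.79% of all windows. These are matches of letters in a fixed window and not measured binding.

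The tissues differed in how much of the list could be measured. The same level of 4 was used in both, although the array medians were 4.09 to 4.19 in lung and 3.25 to 3.37 in heart. In lung, 9 of 10 replication genes and 15 of 29 mitosis genes with a probe set were tested, and in heart 8 of 10 replication genes but only 4 of 29 mitosis genes. In heart, 22 of the 25 untested mitosis genes stayed below 4 in all 12 arrays. Top2a lay between 2.11 and 2.17 in every heart, and Mki67, the common marker of proliferating cells, between 3.29 and 3.37 in 11 hearts. The 4 mitosis genes tested in heart were Cenpf, the spindle motor Kif11, the midzone motor Kif23 and the spindle assembly factor Tpx2. At the edge of the test in heart, the third-highest array read 4.21 for Mcm5 and 4.28 for Kif11, and 3.90 for Prc1 and Aurkb, which were left out. In lung it read 4.10 for Aurkb and 4.48 for Kif11, and 3.94 for Cdk1 and 3.56 for Melk, which were left out. Cdca8 was not tested in lung on its chosen probe set, although another 2 of its probe sets exceeded 4 in 9 and 8 lungs.

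**Figure D1:**
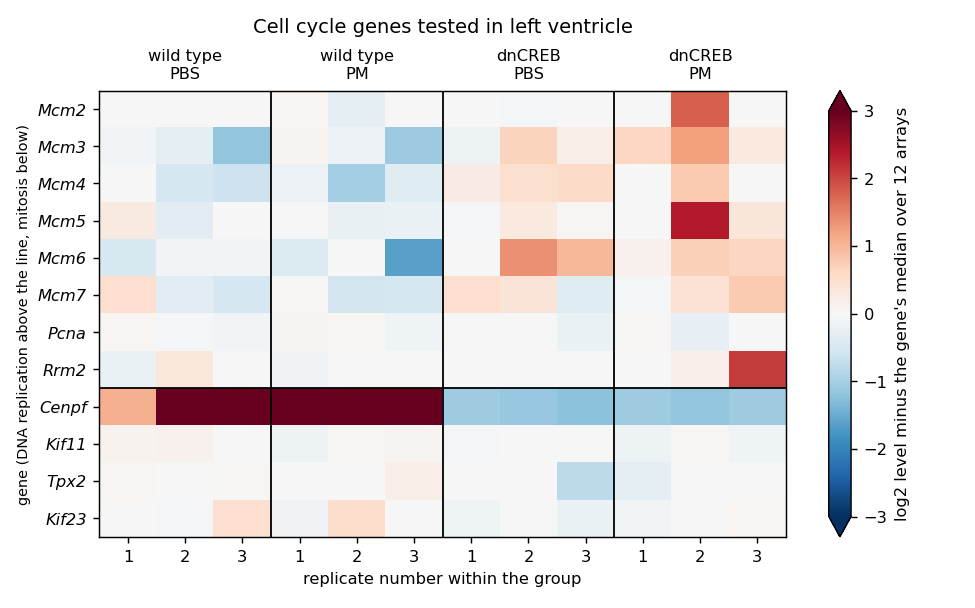
Heat map of the 12 cell cycle members tested in left ventricle (rows) in each of the 12 arrays by group (columns), coloured by the log2 level minus the gene's median over the 12 arrays. Cenpf is above its median in the 6 wild-type hearts and below it in the 6 dnCREB hearts, and colours end at 3 log2 units.

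In heart, the largest difference between the genotypes among the members was that of Cenpf. The wild-type PBS hearts read 4.33, 6.78 and 10.07 and the wild-type PM hearts 10.18, 7.99 and 9.09. The dnCREB hearts read 2.22, 2.13 and 2.05 under PBS and 2.21, 2.09 and 2.20 under PM. All 6 wild-type hearts therefore lay above all 6 dnCREB hearts, and the wild-type hearts were spread over a range that the dnCREB hearts did not show. That Cenpf was low with a wide spread was already known from earlier results of these data, so its choice among the members is not independent of this pattern.

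Under PBS the mean of Cenpf was 7.06 ± 2.88 in wild type and 2.13 ± 0.08 in dnCREB (SD, n = 3 each). Because every dnCREB heart lay under the level of 4 that counts as measured, a fold is given against that level, and dnCREB was at least 8.33-fold lower. Under PM the means were 9.09 ± 1.10 and 2.17 ± 0.06, at least 34.0-fold lower, and over both treatments 8.07 ± 2.24 and 2.15 ± 0.07 (n = 6 each), at least 16.8-fold lower. These values are a description. Cenpf entered the fit only through its wild-type hearts, so that it had to differ, and its fall was known when the members were chosen. The limma adjusted p of 0.0126 under PBS, 0.0024 under PM and 0.00032 on average are therefore no independent tests.

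Cenpf was the 1 member of 12 called lower in dnCREB under PBS (background 5.6% of all 9962 genes), under PM (background 9.13%) and on average (background 13.6%). Its 6 wild-type and 6 dnCREB hearts did not overlap (background 8.69%), and nothing is read from these counts.

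The signal of Cenpf in heart rested on 1 of its 3 probe sets. The other 2 read 1.79 to 1.86 and 2.93 to 3.12 over all 12 hearts, and no array of either exceeded 4. In lung the same 2 read 1.96 to 2.02 and 2.39 to 2.52. The probe set that carries the heart signal read 1.91 to 5.53 in lung, with only wild-type PBS array 1 at 5.53 and dnCREB PM array 2 at 4.43 above 4. No probe set of Cenpf was therefore measured alongside the one that differed between the genotypes.

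**Figure D2:**
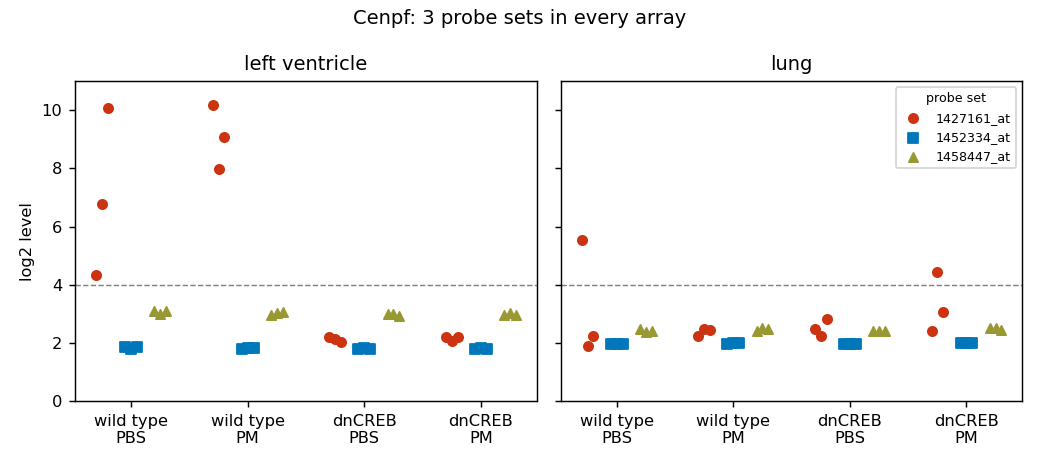
Log2 values of the 3 Cenpf probe sets in each of the 24 arrays, by tissue and group, with a dashed line at the level of 4. One probe set spans 4.33 to 10.18 in wild-type hearts and 2.05 to 2.22 in dnCREB hearts, and the other 2 stay below 3.2 in every array.

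The 6 wild-type hearts were also the Xist-high hearts, and 1 dnCREB heart was Xist-high. That heart, PM array 3, read 2.20 for Cenpf against 4.33 to 10.18 in the wild-type hearts of the same class. With the sex marker class as a covariate the averaged difference was -5.88 with a limma adjusted p of 0.0611, and under PBS -4.87 with an adjusted p of 0.2701, both no longer called. Under PM the call was kept with it (adjusted p = 0.0338). Under PBS the call was also lost in a fit of only the groups compared (limma adjusted p = 0.0587). With the mean over the 3 probe sets the difference was -1.68 under PBS and -2.33 under PM, both still called. The other 2 probe sets were flat at a low level, so this mean follows the 1 that differed and adds no support. The calls that were kept are, like the first ones, no independent tests.

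Among the replication genes of the heart, 3 of the 6 MCM helicase subunits, Mcm3, Mcm4 and Mcm6, were called higher in dnCREB. Mcm4 read 8.87, 8.37 and 8.24 in wild-type PBS hearts and 8.70, 7.84 and 8.50 in wild-type PM hearts. It read 9.11, 9.35 and 9.43 in dnCREB PBS hearts and 8.86, 9.65 and 8.87 in dnCREB PM hearts. The dnCREB hearts were the higher ones, and the genotypes touched only at 8.86 to 8.87. Averaged over treatments Mcm4 rose from 8.42 ± 0.36 to 9.21 ± 0.32 (SD, n = 6 each), a log2 difference of 0.79 ± 0.20 with a limma adjusted p of 0.0105.

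Mcm6 read 6.69, 7.09 and 7.10 in wild-type PBS hearts and 6.75, 7.19 and 5.56 in wild-type PM hearts. It read 7.17, 8.54 and 8.18 in dnCREB PBS hearts and 7.32, 7.90 and 7.83 in dnCREB PM hearts. Within each treatment all 3 dnCREB hearts lay above all 3 wild-type hearts. The averaged difference was 1.09 ± 0.30, from 6.73 ± 0.61 to 7.82 ± 0.51, with a limma adjusted p of 0.0177.

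Mcm3 read 6.85, 6.65 and 5.75 in wild-type PBS hearts and 7.03, 6.77 and 5.84 in wild-type PM hearts. It read 6.78, 7.61 and 7.13 in dnCREB PBS hearts and 7.57, 8.16 and 7.23 in dnCREB PM hearts. The groups overlapped under PBS and did not under PM. It rose by 0.93 ± 0.28 on average, from 6.48 ± 0.55 to 7.41 ± 0.48, with a limma adjusted p of 0.0235. Mcm3 was no longer called without wild-type PBS array 3 (adjusted p = 0.0513) or without dnCREB PBS array 2 (0.0524). It was also not called without the filter on low values (limma adjusted p = 0.0573), or with the mean over its probe sets, where it differed by 0.18 (0.1007).

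The other 3 subunits did not pass the test. Mcm7 differed by 0.51 ± 0.23 on average (limma adjusted p = 0.1143), Mcm5 by 0.59 ± 0.34 (0.2005) and Mcm2 by 0.32 ± 0.28 (0.3884). For Mcm2 and Mcm5 a single heart, dnCREB PM array 2, stood high at 6.98 and 6.29, while the other 11 hearts read 4.90 to 5.25 and 3.57 to 4.27. Pcna differed by -0.06 (adjusted p = 0.60), with all 12 hearts at 11.19 to 11.52. Rrm2 differed by 0.36 ± 0.31 (adjusted p = 0.3873), with 1 heart, dnCREB PM array 3, at 6.65 and the other 11 at 4.35 to 4.90.

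On average over the treatments 3 of the 12 tested members were thus called higher in dnCREB hearts, where 22.3% of all genes were called higher. A share of 3 in 12 is near that background. The median difference was 0.69 over the 6 MCM genes and 0.55 over the 8 replication genes, against 0.05 over all genes tested. All 11 MCM probe sets that were measured in heart read higher in dnCREB, by 0.06 to 2.19, where 51.0% of 19078 measured probe sets did so. Probe sets of 1 gene share its transcripts and are not independent. The second measured probe set of Mcm6 read 5.31 to 7.05 in wild type and 7.60 to 8.98 in dnCREB, without overlap, and that of Mcm4 read 7.20 to 7.64 against 7.62 to 8.06. The second measured probe set of Mcm3 differed by only 0.06.

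**Figure D3:**
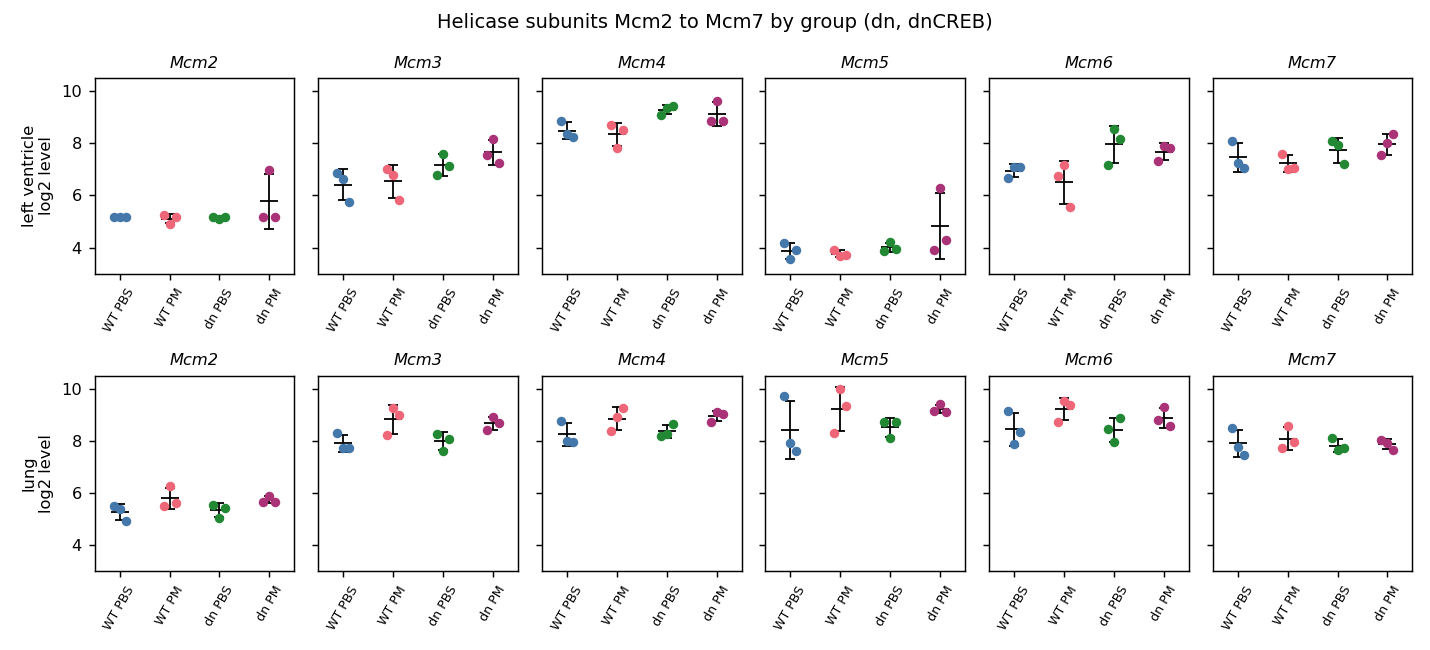
Log2 values of Mcm2 to Mcm7 in each array of lung and heart by group, where points are arrays and bars the mean ± SD of 3 arrays. In heart the group means of Mcm3, Mcm4 and Mcm6 are higher in dnCREB, though single arrays of the genotypes overlap, and in lung the PM arrays sit higher than most PBS arrays for the same 3 genes.

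Within a treatment no MCM gene was called. Under PBS, Mcm4 differed by 0.80 (limma adjusted p = 0.0704), Mcm6 by 1.00 (0.1316) and Mcm3 by 0.76 (0.2015), and 2 of the 12 members lay higher in dnCREB without overlap (background 25.8%) and 3 lower (background 16.9%). Under PM, Mcm3 differed by 1.11 (adjusted p = 0.0699), Mcm4 by 0.78 (0.0724), Mcm6 by 1.19 (0.0763), Mcm7 by 0.74 (0.1438), and 4 of the 12 lay higher without overlap (background 20.2%) and 1, Cenpf, lower (background 16.2%). At an unadjusted p under 0.05 there were 3 of the 12 members under PBS (background 33.1%) and 5 under PM (background 34.0%), Cenpf included.

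The MCM differences also ran with other measures of these hearts. With the sex marker class as a covariate none of the 3 calls held in limma: Mcm4 differed by 0.47 (adjusted p = 0.5582), Mcm6 by 1.28 (0.2764) and Mcm3 by 0.40 (0.7431). The 1 member called on average with that covariate was Rrm2, and none of the 4 called without it remained. The class term in heart is set by dnCREB PM array 3 against dnCREB PM arrays 1 and 2. Rrm2 read 6.65 in array 3, so these lost and gained calls rest on 1 heart. The 1 Xist-high dnCREB heart read 7.83 for Mcm6 against 5.56 to 7.19 in the wild-type hearts of its class, 7.23 for Mcm3 against 5.75 to 7.03, and 8.87 for Mcm4 against 7.84 to 8.87. The 6 fibroblast markers averaged 10.99 to 11.33 in wild-type hearts and 12.38 to 13.86 in dnCREB hearts, and 6 of 6 were called higher. The macrophage markers averaged 7.09 to 8.72 and 8.36 to 9.29, and 7 of 7 tested were called higher. Their part in the MCM differences was not tested.

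The other 3 mitosis genes of the heart did not follow the MCM genes. Kif11 differed by -0.09 (limma adjusted p = 0.3541), with all hearts at 4.03 to 4.31. Kif23 differed by -0.21 (0.2396), with wild-type PBS array 3 and wild-type PM array 2 at 5.14 and 5.15 and the rest lower. Tpx2 differed by -0.22 (0.2269) and stood at 7.13 to 8.11 in every heart, on a probe set that read 1.60 to 1.64 in every lung. Another 2 Tpx2 probe sets read 2.48 to 2.74 in every heart, and 1 of these reached 4.45 in lung, while a further one read 5.14 to 6.03 in heart. The 6 measured probe sets of mitosis genes in heart all read lower in dnCREB (differences of -5.92 to -0.09), and only Cenpf among their genes was called. Of all 19078 measured probe sets in heart, 51.0% read higher in dnCREB. The 6 probe sets come from 4 genes and are not independent, and Cenpf entered only through its wild-type hearts. Nothing is read from this count.

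Particulate matter left the members of the heart without a call. In wild type, dnCREB and averaged, 0 of 12 members were called by limma, where 0.01%, 0.0% and 0.0% of all genes were. At an unadjusted p under 0.05 there were also 0, where 1.47%, 4.92% and 1.86% of all genes were. In wild type, Cenpf differed by 2.03 ± 1.11 (adjusted p = 1.0), with wild-type PBS arrays at 4.33 to 10.07 and wild-type PM arrays at 7.99 to 10.18. Mcm6 differed by -0.46 and Kif11 by -0.09. In dnCREB the smallest p belonged to Rrm2 (0.75), Mcm5 (0.82) and Mcm2 (0.62), each with 1 high array of 3. The interaction of genotype and PM called 0 of 12 members (background 0.0%), with 0 at an unadjusted p under 0.05 (background 3.62%) and Cenpf at -1.99 ± 1.57 (adjusted p = 0.9801).

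**Figure D4:**
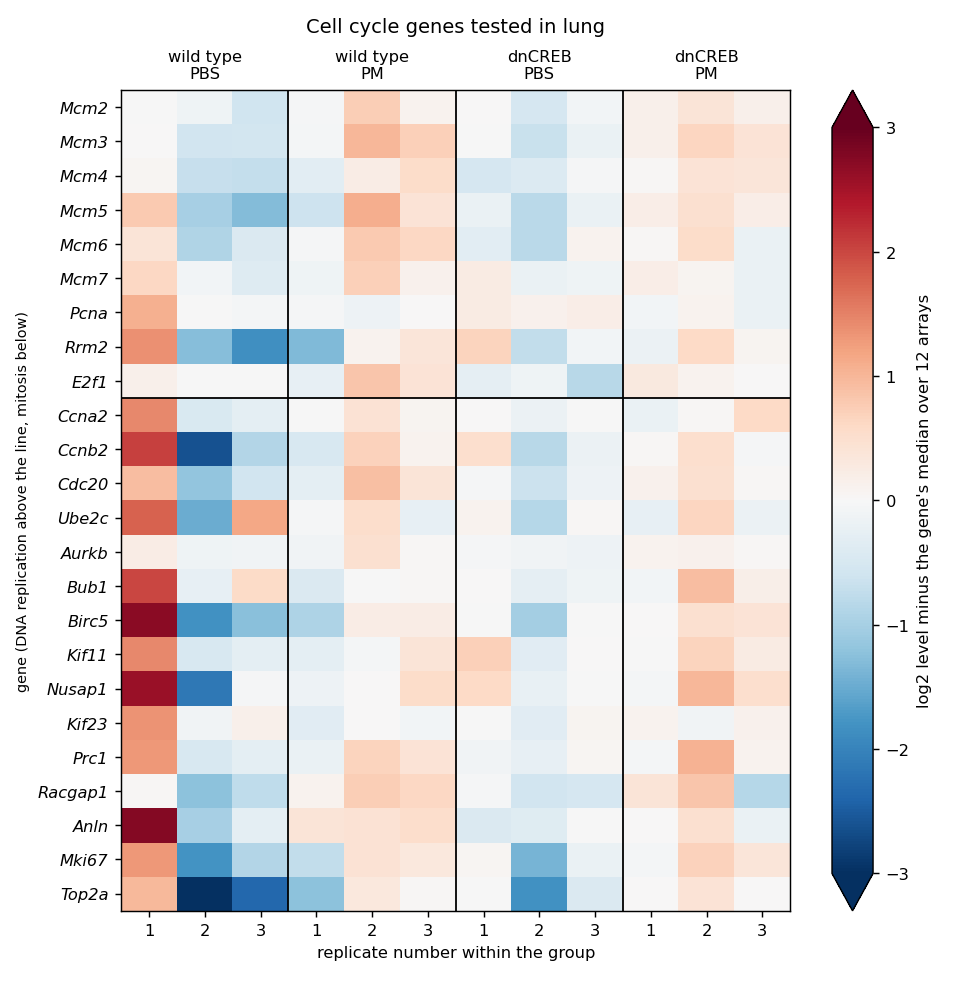
Heat map of the 24 cell cycle members tested in lung (rows) in each of the 12 arrays by group (columns), coloured by the log2 level minus the gene's median over the 12 arrays. Wild-type PBS array 1 is the highest of the 12 for 15 of the 24 genes, and wild-type PBS array 2 is the lowest for 13.

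In lung, 8 of the 9 tested replication genes had a positive averaged difference with PM, and 1 of them, Mcm3, was called. Mcm3 read 8.30, 7.72 and 7.73 in wild-type PBS lungs and 8.22, 9.28 and 9.01 in wild-type PM lungs. It read 8.28, 7.63 and 8.10 in dnCREB PBS lungs and 8.44, 8.94 and 8.70 in dnCREB PM lungs. In 5 of 6 PM lungs Mcm3 lay above every PBS lung, and wild-type PM array 1 was the exception. Averaged over the genotypes it rose from 7.96 ± 0.30 to 8.77 ± 0.39 (SD, n = 6 each), a difference of 0.81 ± 0.21 with a limma adjusted p of 0.0423.

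The call of Mcm3 lay close to the threshold. It was lost when any of 10 of the 12 lungs was left out, with adjusted p from 0.0138 to 0.1031 over the 12, and was kept without wild-type PBS array 1 and without wild-type PM array 1. The difference itself stayed between 0.70 and 0.96. It was lowest without wild-type PM array 2 (0.70, limma adjusted p = 0.0811). With all 24 tested members, 1 was called higher, where 5.41% of all 11600 genes were called higher.

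Mcm4 read 8.77, 8.02 and 7.98 in wild-type PBS lungs and 8.38, 8.93 and 9.26 in wild-type PM lungs, then 8.20, 8.28 and 8.66 in dnCREB PBS lungs and 8.74, 9.11 and 9.06 in dnCREB PM lungs. Its averaged difference was 0.59 ± 0.19 (limma adjusted p = 0.0787). The dnCREB groups did not overlap, and the wild-type groups overlapped through wild-type PBS array 1. Mcm2 differed by 0.47 ± 0.17 (0.1044), Mcm6 by 0.62 ± 0.25 (0.1436) and Mcm5 by 0.76 ± 0.37 (0.2095). E2f1, the factor that drives transcription of replication genes, differed by 0.42 ± 0.18 (0.1718). Pcna ran the other way at -0.32 ± 0.18 (0.2761), with PBS lungs at 11.28 to 12.39 and PM lungs at 11.14 to 11.45.

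The MCM genes leaned the same way under PM. All 6 had a positive averaged difference with a median of 0.61, against 0.08 over all genes, and all 16 of their measured probe sets were positive, by 0.07 to 0.91, where 50.6% of 23681 measured probe sets were. Probe sets of a gene are again not independent. Within Xist classes, Mcm3 read 7.72 to 8.30 in the Xist-low PBS lungs against 9.28 in the 1 Xist-low PM lung, and 7.63 in the 1 Xist-high PBS lung against 8.22 to 9.01 in the Xist-high PM lungs. The Xist-low PBS lungs include dnCREB PBS lungs 1 and 3, which were low for Eif2s3y as well. With the sex marker class as a covariate limma called Mcm3 and Mcm2 on average, where 2.5% of all genes were called. That class term rests on the wild-type PM and dnCREB PBS lungs, the groups that held both classes. With the skeletal muscle mean as a covariate Mcm3 differed by 0.78 (limma adjusted p = 0.0651). The macrophage markers averaged 9.01 to 9.89 in PBS lungs and 9.69 to 11.23 in PM lungs, with 3 of 8 called higher, and the B cell markers 7.43 to 8.74 and 8.77 to 9.20, with 1 of 4 tested called higher. Their part in the replication genes was not tested.

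Mitosis genes showed no call over all 12 lungs, and their averaged differences had a median of 0.18. Top2a read 7.48, 3.38 and 4.16 in wild-type PBS lungs and 5.27, 6.81 and 6.55 in wild-type PM lungs. It read 6.50, 4.69 and 6.06 in dnCREB PBS lungs and 6.51, 6.91 and 6.52 in dnCREB PM lungs. The wild-type PBS lungs were thus spread over a wider range than any other group, with array 1 the highest of all 12 and array 2 the lowest. The averaged difference of Top2a was 1.05 ± 0.63 (limma adjusted p = 0.297). Racgap1, which with Kif23 forms the complex that directs cytokinesis, differed by 0.81 ± 0.30 (0.1104).

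Wild-type PBS array 1 set much of this spread. Its 15 mitosis genes lay on average 1.52 above their medians over the 12 lungs, all 15 of them above, while those of wild-type PBS array 2 lay 1.22 below. In that array 6 of the 24 members were more than 1 log2 unit above every other lung, where 1.84% of all genes were. Birc5, the survivin subunit of the chromosomal passenger complex, read 7.45 there and 2.91 to 5.21 elsewhere. Anln, the actin-binding scaffold of the cleavage furrow, read 8.47 there and 4.73 to 6.26 elsewhere. Cdk1, which was not tested in lung, read 6.72 there and 2.44 to 4.21 elsewhere. The endothelial markers averaged 9.87 in that array and 10.59 to 11.66 in the other 11, and their part in this was not tested.

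**Figure D5:**
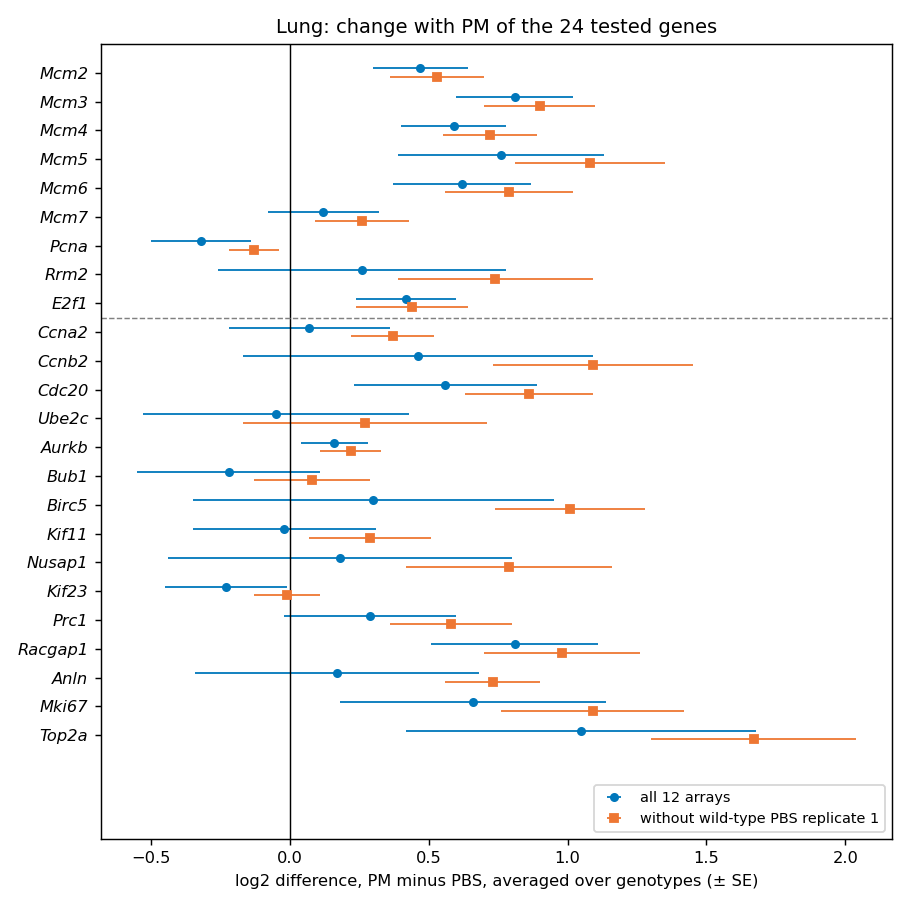
Log2 difference of PM minus PBS averaged over the genotypes for the 24 tested lung members, with standard errors, over all 12 arrays and without wild-type PBS array 1. Without that array 22 of the 24 differences are positive and their median moves from 0.30 to 0.73.

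Without wild-type PBS array 1, 7 of the 24 members were called higher with PM, where 7.31% of all genes were, and 15 had an unadjusted p under 0.05. Over all 12 lungs 6 members had one, where 27.8% of all genes did. That share was not taken without this array. The 7 called members were the replication genes Mcm3 (0.90 ± 0.20, limma adjusted p = 0.0301), Mcm4 (0.72 ± 0.17, 0.0312) and Mcm5 (1.08 ± 0.27, 0.0382), and 4 mitosis genes. Of those, Top2a differed by 1.67 ± 0.37 (0.0299), Anln by 0.73 ± 0.17 (0.0316), Birc5 by 1.01 ± 0.27 (0.0475) and Cdc20, the activator of the anaphase-promoting complex, by 0.86 ± 0.23 (0.0449). For each of these 7 genes, 5 of 6 PM lungs then lay above all 5 PBS lungs. The same held for Mcm2, Aurkb, Racgap1 and E2f1, which were not called, and the share over all genes was not taken. The 7 genes were picked by the fit to the same arrays, so nothing is read from this count. For Top2a the PBS lungs read 3.38 to 6.50 and the PM lungs 5.27 to 6.91. The median difference was 0.73 for mitosis genes and 0.72 for replication genes, against 0.08 over all genes. Leaving this array out was 1 of 12 such omissions, and the array was singled out after its values were seen.

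Within the genotypes no member was called with PM. In wild-type lungs limma called 0 of 24, where 2.39% of all genes were called. At an unadjusted p under 0.05 there were 3 of 24, where 26.3% of all genes were, namely Mcm3 (0.92 ± 0.29, limma adjusted p = 0.0957), Racgap1 (1.13 ± 0.42, 0.1302) and Mcm4 (0.60 ± 0.27, 0.1874). Racgap1 read 5.15, 3.88 and 4.35 in wild-type PBS lungs and 5.20, 5.85 and 5.72 in wild-type PM lungs, the 1 member without overlap (background 17.4%). Without wild-type PBS array 1 the median difference in wild type moved from 0.23 to 0.98, still with 0 called.

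In dnCREB lungs, whose differences do not include that array, 23 of 24 members were higher with PM and only Pcna was lower. Their median was 0.44 against 0.07 over all genes. The share of all genes that were higher is not given here. The members were read in the same lungs and are not independent. Of the 24, 9 lay higher without overlap (background 20.8%) and 1, Pcna, lower (background 8.25%). None was called (background 0.00862%). Mcm3 alone had an unadjusted p under 0.05 (0.69 ± 0.29, limma adjusted p = 0.4738), where 9.72% of all genes did. Next were Mcm4 at 0.59 (0.5175) and E2f1 at 0.55 (0.5432), with E2f1 at 4.69, 4.83 and 4.14 under PBS and 5.26, 5.06 and 4.98 under PM. Wild-type PBS array 1 does enter the spread behind these p-values, which the 4 groups share. Without it Mcm3 and Mcm4 had an unadjusted p under 0.05 (limma adjusted p = 0.2819 and 0.2652), with 0 members called.

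The genotype did not move a member past the test in lung. Under PBS, under PM, averaged and in the interaction, limma called 0 of 24 members (background 0.0259%, 0.0%, 0.00862% and 0.00862%). At an unadjusted p under 0.05 there were also 0 (background 5.42%, 3.97%, 4.85% and 5.22%). Under PBS, the checkpoint kinase Bub1 differed by -0.92 ± 0.46 (adjusted p = 0.8747), with 6.26 in wild-type PBS array 1 and 3.97 to 4.82 in the other 5 PBS lungs. Kif23 differed by -0.56 and E2f1 by -0.45, and E2f1 was the 1 member without overlap (background 7.99%). Under PM, Bub1 differed by 0.49, Mcm6 by -0.33 and Racgap1 by -0.37, and on average E2f1 differed by -0.33, Anln by -0.56 and Top2a by 0.59. The interaction had its smallest p for Bub1 (1.40 ± 0.65, adjusted p = 0.8314), Kif23 (0.74) and Racgap1 (-0.64). Without wild-type PBS array 1 the median difference under PBS moved from -0.07 to 0.35 and the median interaction from 0.10 to -0.42, with no member called in either.

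The change with dnCREB in heart was set against that in lung by a test of the difference itself over the 12318 genes measured in either tissue. Mcm6 changed by 1.27 ± 0.41 more in heart (limma adjusted p = 0.0395), and was called higher where 11.6% of genes were. Its dnCREB minus wild-type difference in lung was -0.18. For Cenpf, which exceeded 4 in only 2 of the 12 lungs and in no dnCREB heart, the fitted difference rests on values below the measured level and gives no size. It was called lower, where 5.2% of genes were, and nothing is read from that. Mcm3 differed by 0.96 (0.0711) and Mcm4 by 0.67 (0.1138). The call of Mcm6 was lost in 16 of 24 omissions of an array. With the sex marker class as a covariate neither held (Cenpf -6.06, adjusted p = 0.0561, and Mcm6 1.26, 0.3902). For PM the tissues differed for 0 of 26 members (background 1.66%), with 3 at an unadjusted p under 0.05 (background 16.9%). Those were Mcm4 (-0.75, limma adjusted p = 0.1784), Racgap1 (-0.82) and Mcm6 (-0.99, 0.2236).

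A wider list of 123 other cell cycle genes, among them G1 cyclins, inhibitors, transcription factors and further replication and mitosis genes, was read beside the members. In heart, limma called 15 of its 58 tested genes higher and 4 lower in dnCREB on average, with a median of 0.11 against 0.05 over all genes, of which 22.3% were called higher and 13.6% lower. Cks2, a small subunit of cyclin-dependent kinases, read 3.93 to 4.40 in all wild-type hearts and 7.80, 8.11 and 6.41 under PBS and 5.10, 7.58 and 8.45 under PM in dnCREB hearts. The genotypes did not overlap for it, and it rose by 2.95 ± 0.51 (adjusted p = 0.0014). The G1 cyclins Ccnd1 and Ccnd2, which activate the kinases that free E2F, rose by 2.24 ± 0.32 (0.00046) and 1.71 ± 0.24 (0.00042). Ccnd1 read 8.63 to 10.40 in wild type and 10.70 to 11.95 in dnCREB, and Ccnd2 9.13 to 10.57 and 11.11 to 11.90.

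The E2F factor E2f3 rose by 0.63 ± 0.07 (limma adjusted p = 0.00013), from 5.80 to 6.13 in wild-type hearts to 6.46 to 6.75 in dnCREB hearts. Lower in dnCREB hearts were Dut, which removes dUTP before replication (-1.32 ± 0.18, 0.00038), and Ccnh, the cyclin of the CDK-activating kinase (-0.61 ± 0.11, 0.0015). With the sex marker class as a covariate, whose term in heart rests on 1 array, 7 of the 58 genes of the list were called in heart, where 8.68% of all genes were. Of those named here, Ccnd2 (limma adjusted p = 0.0804) and Ccnh (0.0929) were no longer called, and Cks2 (0.012), Dut (0.0138), Ccnd1 (0.0423) and E2f3 (0.0479) were. In lung with PM, 4 of 81 were called higher, a share near the background of 5.41%, and 0 lower. They were the kinase inhibitor Cdkn1c (0.93 ± 0.18, limma adjusted p = 0.0206), E2f3 (0.59 ± 0.15, 0.04), Ccnd2 (0.61 ± 0.15, 0.0424) and the G1 kinase Cdk6 (0.44 ± 0.11, 0.0424). Cdkn1c read 8.33 to 9.34 in PBS lungs and 9.36 to 10.16 in PM lungs, and the groups did not overlap. Leaving out single arrays gave 0 to 12 calls for this list in lung, and of the 12 omissions 9 ended the call of E2f3, 9 that of Ccnd2, 8 that of Cdk6 and 3 that of Cdkn1c.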

How the data were processed

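RNA of 24 samples was measured on Affymetrix arrays. The values deposited for each probe set are on a log2 scale, and GCRMA produced them, per the submitters' processing notes, with no version given. The genome build of the probe annotation is not given in the sources used here. No further normalization was applied. Array minima differed by tissue (lung 0.52 to 0.56, heart -0.22 to -0.20), a sign of separate normalization, and no difference in level between the tissues was tested. Precision is limited by the number of arrays.

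Probe sets with 1 gene symbol were used (34945 of 45037), and those with several (932) or none (9160) were not. The probe set with the highest mean in the 24 arrays stood for a gene. A model of 4 group means was fitted to the 12 arrays of a tissue (limma 3.58.1, R 4.3.3), with Benjamini-Hochberg adjustment over all genes tested (11600 in lung, 9962 in heart) at an adjusted p under 0.05. The fit was tested on simulated data. Where all arrays of a group lay under 4, the fold of a called gene is against that level. Averaged comparisons weight both groups equally.

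The members, lists and tests were chosen with earlier results of these data known. Members that passed were named up to 12 per comparison by p, or the 3 smallest p where none passed, and other cell cycle genes up to 6. For lung with PM, members called without wild-type PBS array 1 are also named. The motif TGACGTCA was added after the data were seen. The alternatives tried were no filter, a filter at 6, quantile normalization, median centring, the mean over probe sets, only the groups compared, a variance trend with robust estimation, the replicate number as a block, each array left out, and the sex marker class or the skeletal muscle mean as a covariate. Python 3.11.15, pandas 2.3.3 and matplotlib 3.10.9 made the tables and plots.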

Additional observations from a re-analysis of the deposited data

Results flagged for a closer look

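The change with dnCREB in Mcm6 differed between heart and lung by a test of the difference itself. Heart minus lung was 1.27 ± 0.41 (limma adjusted p = 0.0395), with 1.09 in heart and -0.18 in lung. For Cenpf the fitted difference of -6.02 was also past the threshold, but it gives no size. All dnCREB hearts and 10 of 12 lungs lay below 4, and Cenpf entered through the wild-type hearts, so it stands as a description. Neither was called with the sex marker class as a covariate, and what lies behind either was not tested.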

How the results depend on the processing

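The number of members called changed as follows. In lung with PM on average it was 0 under no filter, quantile normalization, the mean over probe sets, the replicate block and the muscle covariate, 2 with the sex marker class, and 0 to 7 with an array left out, against 1. In wild-type lung with PM it was 2 with the sex marker class and 0 to 1 with an array left out, against 0. In heart with dnCREB it was 2 under PBS with the mean over probe sets, and under PM 3 with that mean, 2 with the block and 2 with the sex marker class, against 1 each, and 1 to 2 in both with an array left out. On average in heart it was 1 with the sex marker class, Rrm2, and 3 to 5 with an array left out, against 4. For heart minus lung with dnCREB it was 1 without the filter, 1 with quantile normalization, 0 with the sex marker class, 3 with the block and 1 to 4 with an array left out, against 2, and with PM 0 to 2 against 0. Among single genes, Mcm5 in heart turned to -0.10 with the sex marker class. Leaving out an array moved Mcm6 with PM in wild-type heart from -0.81 to 0.01. In lung it moved Anln (-0.20 to 0.73) and Birc5 (-0.13 to 1.01) with PM, and Anln (-0.93 to 0.00) and Racgap1 under PM (-0.72 to 0.12) with dnCREB. The cause of these moves was not tested. Deviations from the group means correlated at -0.30 to 0.311 in heart and -0.332 to 0.334 in lung between same-numbered samples. Differently numbered samples were not compared, so this cannot decide whether the replicate numbers pair samples. Quantile normalization shifted the median gene by -0.12 in heart under PBS and put 56.0% of calls higher against 70.1%, and 50.1% against 62.2% on average. The 3 MCM calls held under it. Heart calls were limited by genotype running with the sex marker class, whose covariate there rests on 1 array, and 1 probe set carries Cenpf. Genes below 4 give no direction.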

Other observations

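Single hearts stood high for sets of members that were otherwise at a low level. In dnCREB PM array 3, Rrm2 read 6.65, Mki67 4.66, Ube2c, the ubiquitin-conjugating enzyme of the anaphase-promoting complex, 4.29, and Cdca8, a passenger complex subunit, 4.24. Elsewhere in heart Mki67 read at most 3.37 and Ube2c at most 2.91. In dnCREB PM array 2, Mcm2 read 6.98 and Mcm5 6.29. A second Rrm2 probe set was high in both of these hearts, at 4.53 in array 2 and 5.96 in array 3, against 3.25 to 3.41 in the other 10. dnCREB PM array 1 was high for none of these 6 members. These genes were singled out after their values were seen.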
